A study of Mus musculus with 21 samples.

Results

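*Pomc* and *Cartpt*, the genes of the satiety peptide precursors proopiomelanocortin and CART (cocaine- and amphetamine-regulated transcript), were taken by gene symbol from a table of read counts and made up 2 of its 21654 rows. RNA came from punches of the ventral hypothalamus (VH) of male C57BL/6J mice, spelled C57/B6J in the sample labels. They were obtained at 12 to 14 weeks of age. Mice stayed on regular chow (RC NoDS, n = 5 libraries) or on a high-fat diet (HFD NoDS, n = 5), or underwent a diet switch (DS) from RC to HFD (RC → HFD, n = 6) or from HFD to RC (HFD → RC, n = 5) about a week before collection. In all 4 groups, mice had been kept awake for 3 h with unfamiliar objects and were killed in the hour that began at ZT6, in the middle of the light phase. Each library pooled RNA of 2 mice of the same group, so the spread given here is between pools and not between single mice. Before sequencing, the authors had screened punches by qPCR on *Agrp* and *Pomc* relative to *Hcrt*, and *Pomc* thus took part in choosing the tissue. The counts summed to between 16380781 and 16390598 reads per library.

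In the arcuate nucleus, neurons that express *Pomc* release α-melanocyte-stimulating hormone, which acts on melanocortin receptors to reduce food intake, while neighbouring neurons that express *Agrp* and *Npy* oppose them. Proopiomelanocortin is cut into several hormones by prohormone convertases, and in the pituitary the same precursor gives rise to adrenocorticotropic hormone. *Cartpt* is expressed in many *Pomc* neurons, and also in other hypothalamic neurons, among them neurons of the lateral hypothalamus that express *Pmch* (melanin-concentrating hormone).

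In the mouse genome build NCBIM37, *Pomc* (ENSMUSG00000020660) lies on the plus strand of chromosome 12 from 3954951 to 3960618, with 3 exons that sum to 1007 bases. *Cartpt* (ENSMUSG00000021647) lies on the minus strand of chromosome 13 from 100668439 to 100670638, with 3 exons that sum to 874 bases. No annotated gene overlapped either of them, and the nearest neighbours were *Efr3b*, 1936 bases from *Pomc* on the opposite strand, and *Mccc2*, 47850 bases from *Cartpt*. A search of the genome with both mRNAs found 1 further place that resembled *Pomc*, on chromosome 19 from 15436829 to 15437360, with 92.1% identity over 533 bases. How reads that match both places were assigned is not given in the sources used here, so a contribution of this copy to the *Pomc* counts was not tested. No further place was found for *Cartpt*.

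*Pomc* averaged 7159 reads ± 1725 (SD, n = 5) in RC NoDS, and its libraries had 6464, 5012, 6696, 8063 and 9562 reads. In RC → HFD the mean was 9422 ± 1943 (n = 6), with a lowest value of 5919, a median of 9989.5 and a highest of 11263. HFD → RC libraries had 5417, 9866, 8488, 6700 and 5182 reads, with a mean of 7131 ± 2015 (n = 5). The *Pomc* level was therefore nearly the same in both groups that ate RC at collection, with about the same spread. HFD NoDS libraries had 7815, 10670, 8235, 11836 and 7847 reads, and their mean was 9281 ± 1855 (n = 5). By mean reads the order was RC → HFD, HFD NoDS, RC NoDS and HFD → RC, with the 2 groups that ate HFD at collection on top. All 4 ranges overlapped: 6 of the 11 libraries of mice eating HFD were above all 10 libraries of mice eating RC, and 3 of these 10 were below all 11. RC → HFD replicate 8 stood lowest in its group, at 5919 reads, while the other 5 libraries of that group had at least 8586.

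*Cartpt* averaged 2966 reads ± 563 (SD, n = 5) in RC NoDS, with 3110, 2266, 2490, 3477 and 3486 reads per library. In RC → HFD it averaged 3923 ± 593 (n = 6), from 2943 to 4729 with a median of 4038.5. HFD → RC libraries had 2752, 3409, 2351, 4147 and 3575 reads (mean 3247 ± 706, n = 5). HFD NoDS had the highest *Cartpt* level, with 5221, 4823, 5332, 6161 and 5593 reads and a mean of 5426 ± 496 (n = 5). All 5 HFD NoDS libraries were above all 16 libraries of the other groups. The reads of HFD NoDS did not overlap those of RC NoDS for *Cartpt*, nor for 0.893% of the 12768 genes tested. The shares of genes without overlap were 1.02% between HFD NoDS and HFD → RC and 0.744% between HFD NoDS and RC → HFD, and *Cartpt* was among them in both. The ranges of the 3 lower groups overlapped each other.

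**Figure D1:**
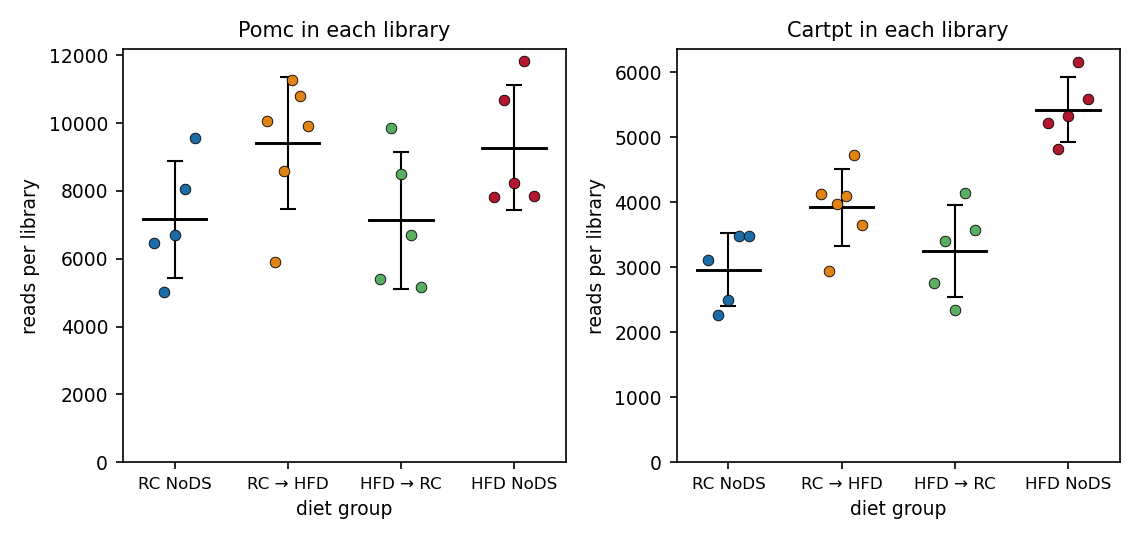
Reads per library of *Pomc* (left) and *Cartpt* (right) in the 4 diet groups. Each point is 1 library (2 pooled mice), horizontal lines are group means and error bars are SD (n = 5, 6, 5 and 5). *Cartpt* in HFD NoDS, from 4823 to 6161 reads, lies above all other libraries, whereas the *Pomc* ranges of all groups overlap.

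The 4 groups cross the diet eaten earlier with the diet eaten at collection, so the effect of each was estimated with edgeR from the same fit. Body weight differed between the groups too, and the authors report both switched groups as heavier than RC NoDS and lighter than HFD NoDS. The part of body weight in the effects given here was not tested. Genes averaging at least 50 reads were tested, which both *Pomc* and *Cartpt* passed, and were called at an adjusted p under 0.15. In bulk tissue, fewer cells of a type and less RNA per cell cannot be told apart. *Cartpt* rose with current HFD, by 0.58 on the log2 scale (95% confidence interval 0.40 to 0.77, edgeR adjusted p = 0.00179), where 6 genes (0.047%) were called. By p-value it ranked 4 of 12768. The *Cartpt* call was lost without the libraries with over 10 reads of the pituitary genes *Gh* or *Prl*, set out below (0.54, edgeR adjusted p = 0.222). The standard error was 0.109 in that fit and 0.0904 with all libraries. In mean reads, current HFD exceeded current RC by 1568, and by 957 after earlier RC and 2179 after earlier HFD (exact two-sided permutation p = 1.03e-04, permuting libraries within the earlier diet). For 6 of 11 libraries of mice on HFD the *Cartpt* count was above all 10 libraries of mice on RC. *Pomc* was not called for current diet over all genes. Its log2 fold change was 0.40 (95% confidence interval 0.15 to 0.65, edgeR adjusted p = 0.745, unadjusted p = 0.00315), which was rank 45 by p-value, and 1.5% of the genes had a larger change in either direction. The mean difference in *Pomc* was 2206 reads, with 2263 after earlier RC and 2150 after earlier HFD (exact two-sided permutation p = 0.0152). These exact tests were 4 in number, and their p-values were not adjusted. The smallest p such a test allows here is 1.72e-05.

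For the earlier diet, where 9 genes (0.0705%) were called, neither gene was. The *Pomc* log2 fold change of earlier HFD was −0.01 (95% confidence interval −0.26 to 0.25, edgeR adjusted p = 0.997), and the mean difference was −85.1 reads (exact permutation p = 0.916). *Cartpt* had a log2 fold change of 0.31 (95% confidence interval 0.12 to 0.49, edgeR adjusted p = 0.430, unadjusted p = 0.00200). Its mean was 892 reads higher after earlier HFD, with 281 more reads among libraries on current RC and 1503 more among those on current HFD (exact permutation p = 0.00681). The interaction asks whether the effect of current HFD differed between earlier diets, and 4 genes (0.0313%) were called for it. The difference was 0.31 for *Cartpt* (95% confidence interval −0.06 to 0.67, edgeR adjusted p = 0.665) and −0.05 for *Pomc* (95% confidence interval −0.55 to 0.45, edgeR adjusted p = 0.978). Neither was called, and both intervals include 0.

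Between pairs of groups, *Cartpt* was called in 2 of 6 comparisons and *Pomc* in none. In HFD NoDS relative to RC NoDS (0.0783% of genes called), *Cartpt* rose by 0.89 (standard error 0.131, edgeR adjusted p = 9.30e-04), and *Pomc* had a log2 fold change of 0.39 (edgeR adjusted p = 0.657). HFD NoDS also exceeded HFD → RC in *Cartpt*, by 0.73 (95% confidence interval 0.47 to 1.00, edgeR adjusted p = 0.0314), where 0.0705% of genes were called and *Cartpt* ranked 1 by p-value. This call was lost without HFD → RC replicate 15 (0.64, edgeR adjusted p = 0.172) and without HFD NoDS replicate 23 (0.69, edgeR adjusted p = 0.190), and over all 21 fits with 1 library left out the edgeR adjusted p ran from 0.00991 to 0.190. It was also lost with a robust dispersion (edgeR adjusted p = 0.162), and over 16 alternatives the adjusted p ran from 0.00485 to 0.346. *Pomc* differed by 0.37 between these groups (95% confidence interval 0.01 to 0.73, edgeR adjusted p = 0.617).

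For RC → HFD relative to RC NoDS, with 0.0392% of genes called, the log2 fold changes were alike, at 0.42 for *Pomc* (edgeR adjusted p = 0.695) and 0.43 for *Cartpt* (edgeR adjusted p = 0.538). *Cartpt* was called there by DESeq2 (0.43, DESeq2 adjusted p = 0.0748) and with *Pmch* as covariate, and over 16 alternatives its adjusted p ran from 0.0575 to 0.99988. RC → HFD relative to HFD → RC gave 0.40 for *Pomc* and 0.28 for *Cartpt* (edgeR adjusted p = 0.899 for each), and 0.00783% of genes were called. Neither gene was called between HFD → RC and RC NoDS, where 0.282% of genes were. There the log2 fold change was 0.02 for *Pomc* (95% confidence interval −0.34 to 0.38) and 0.15 for *Cartpt* (95% confidence interval −0.11 to 0.42). The *Cartpt* value ran from 0.05, without HFD → RC replicate 16, to 0.24, without HFD → RC replicate 15, when 1 library was left out. In HFD NoDS relative to RC → HFD, with 0.0157% called, *Cartpt* was higher by 0.46 (95% confidence interval 0.21 to 0.71, edgeR adjusted p = 0.410) and *Pomc* differed by −0.03 (95% confidence interval −0.38 to 0.32). Across all 4 groups at once, 0.149% of genes were called, among them *Cartpt* (edgeR adjusted p = 0.00232) but not *Pomc* (edgeR adjusted p = 0.571). In the order of *Cartpt* means, from HFD NoDS over RC → HFD and HFD → RC to RC NoDS, no 2 neighbours differed at the threshold.

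**Figure D2:**
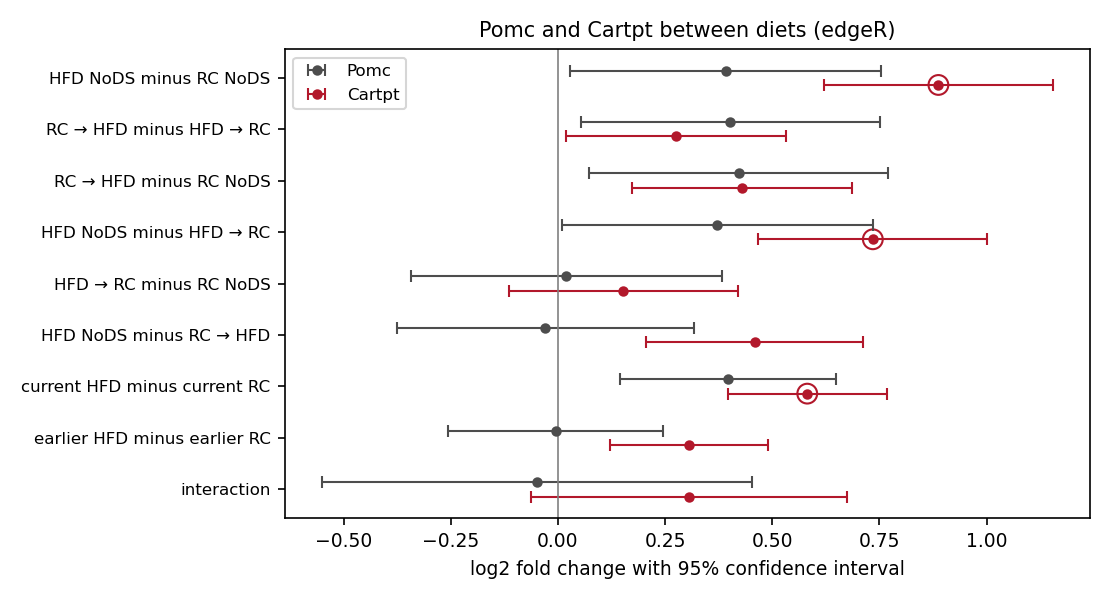
Log2 fold changes of *Pomc* (grey) and *Cartpt* (red) for 6 pairs of groups, current diet, earlier diet and their interaction, with 95% confidence intervals from edgeR over 21 libraries. Open circles mark an adjusted p under 0.15, which *Cartpt* reached for HFD NoDS minus RC NoDS, HFD NoDS minus HFD → RC and current diet, and *Pomc* for none.

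Levels of different genes were compared per length, as RPKM, in which reads are divided by exon length and by library size scaled with the TMM factor of edgeR. On this scale *Pomc* averaged 504 over the 21 libraries and *Cartpt* 272, against a median of 8.88 over the genes tested, which were ranks 48 and 126 of 12768. The level of *Cartpt* per length was below that of *Pomc* in every library. Their ratio, *Cartpt* over *Pomc*, was 0.484 ± 0.0584 (SD, n = 5) in RC NoDS and 0.488 ± 0.0610 (n = 6) in RC → HFD, so it was about the same with and without a week of HFD. In HFD → RC it was 0.562 ± 0.202 (n = 5), from 0.319 in replicate 15 to 0.795 in replicate 17. HFD NoDS had ratios of 0.770, 0.521, 0.746, 0.60 and 0.821, with a mean of 0.692 ± 0.126 (n = 5). The HFD → RC range spanned nearly all other libraries, and only HFD NoDS replicate 24 was above it. The ratio is given as a description, with no test.

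*Pomc* varied widely between libraries of the same group. Its coefficient of variation, averaged over the 4 groups, was 23.2%, against a median of 6.93% for the 642 genes with means within 2-fold of its own, and 99.1% of those genes varied less. For *Cartpt* it was 16.2%, against a median of 7.92% over 1773 genes, 97.4% of which varied less. *Cartpt* was least variable in HFD NoDS, at 9.13%, where 55.4% of genes of similar level varied less. In the other 3 groups its coefficient of variation was 19.0% in RC NoDS, 15.1% in RC → HFD and 21.7% in HFD → RC.

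To ask whether both genes moved together apart from diet, each log2 level was expressed as its deviation from the group mean. The Pearson correlation of *Pomc* and *Cartpt* over 21 libraries was 0.447 (permutation p = 0.0808, adjusted 0.220 over 11 relations), and Spearman's rho was 0.417 (permutation p = 0.0991, adjusted 0.218). Neither r nor rho passed at an adjusted p under 0.15. In 13 of 21 libraries both genes were on the same side of their group means, with 4 of 5 in RC NoDS, 4 of 6 in RC → HFD, 2 of 5 in HFD → RC and 3 of 5 in HFD NoDS. Without the 2 libraries whose *Pomc* was farthest from the median (RC → HFD replicate 8 and HFD → RC replicate 14) r was 0.271. Without replicate 8 alone it was 0.297 and without replicate 14 alone 0.441, so part of the relation rested on RC → HFD replicate 8. The pooled r of the levels, which also holds differences between group means, was 0.585, with a rho of 0.518. Within RC → HFD alone, r was 0.879 over 6 libraries (exact permutation p = 0.0319) and rho was 0.771 (exact permutation p = 0.103), both unadjusted. For the other 3 groups, of 5 libraries each, no r of their own was computed. In RC → HFD, replicate 8 was lowest in both genes, at −0.65 in *Pomc* and −0.41 in *Cartpt* on the log2 scale. The r of this group without replicate 8 was not computed, so how far it rested on that library was not tested.

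The HFD → RC group departed most from a common movement of both genes. Replicate 15 was 0.32 above its group mean in *Pomc* and at −0.42 in *Cartpt*, and replicate 17 was at −0.43 in *Pomc* and 0.15 above in *Cartpt*. With 1 group left out at a time, r was 0.282 without RC NoDS, 0.287 without RC → HFD, 0.774 without HFD → RC and 0.473 without HFD NoDS. With 1 library left out it ran from 0.297, without RC → HFD replicate 8, to 0.645, without HFD → RC replicate 15. The unadjusted permutation p was under 0.05 without that library (0.00911) and without HFD → RC replicate 17 (r = 0.539, permutation p = 0.0370), and not without any other single library. HFD → RC was singled out after its values were seen, so these r are a description, and a difference in coupling between groups was not tested.

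**Figure D3:**
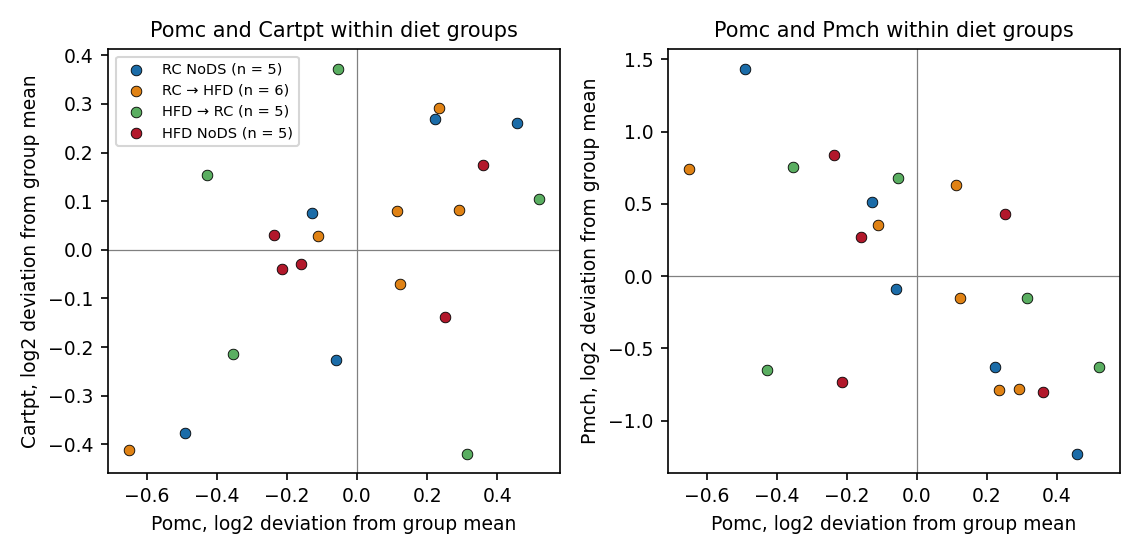
Deviations from the diet group mean, in log2 units, of *Cartpt* (left) and *Pmch* (right) against *Pomc*, with 1 point per library and colours for the 4 groups (n = 21 libraries). Pearson's r was 0.447 for *Cartpt* and −0.636 for *Pmch*, and the HFD → RC points lie farthest from a common line on the left.

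Both genes were set against other hypothalamic peptides in the same way. *Pmch* had an r of −0.636 with *Pomc* (permutation p = 0.00504, adjusted 0.0554) and a rho of −0.644 (permutation p = 0.00463, adjusted 0.0509), and r was −0.585 without the 2 libraries farthest from the *Pomc* median. In 16 of 21 libraries *Pomc* and *Pmch* were on opposite sides of their group means. The exceptions were RC → HFD replicate 7 and HFD NoDS replicate 20, above the mean in both, and RC NoDS replicate 3, HFD → RC replicate 17 and HFD NoDS replicate 19, below it in both. RC NoDS replicate 2 had the most *Pmch* of its group, 1757 reads, and the fewest *Pomc* reads, and RC → HFD replicate 8, with 2234 *Pmch* reads, was likewise lowest in *Pomc*. For *Cartpt* and *Pmch*, r was −0.497 (permutation p = 0.0426, adjusted 0.156) and rho −0.496 (permutation p = 0.0335, adjusted 0.123). *Cartpt* and *Npy* had an r of 0.576 (permutation p = 0.0166, adjusted 0.0914) and a rho of 0.612 (permutation p = 0.00949, adjusted 0.0522), and r was 0.372 without RC → HFD replicate 8 and HFD → RC replicate 15. *Pomc* had an r of 0.394 with *Npy* and 0.219 with *Agrp*, and *Cartpt* one of 0.286 with *Agrp* (permutation p = 0.122, 0.421 and 0.316). With *Hcrt*, r was −0.117 for *Pomc* (permutation p = 0.623) and −0.349 for *Cartpt* (permutation p = 0.100). At an adjusted p under 0.15, 2 of 11 relations passed by r, *Pomc* with *Pmch* and *Cartpt* with *Npy*. By rho, *Cartpt* with *Pmch* passed as well (adjusted 0.123). At an adjusted p under 0.05, no relation passed by r or by rho.

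With the *Pmch* level of each library as a covariate, *Pomc* was called for current diet, by 0.60 on the log2 scale (edgeR adjusted p = 0.0133) in place of 0.40. Over the 15 alternatives other than leaving out 1 library, the adjusted p of this effect (edgeR, DESeq2 or limma) ran from 0.0133 to 0.999, and only this covariate gave a call. In RC → HFD relative to RC NoDS the covariate gave 0.75 for *Pomc* (edgeR adjusted p = 0.0470) and 0.60 for *Cartpt* (edgeR adjusted p = 0.0575). *Pmch* itself had a log2 fold change of 0.57 with current HFD (edgeR adjusted p = 0.892), and from 273 to 2234 reads over all libraries. With *Pmch* removed as well, the r of *Pomc* and *Cartpt* was 0.196 (permutation p = 0.534). With *Agrp* and *Npy* removed in place of *Pmch*, it was 0.265 (permutation p = 0.328).

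The genes most like *Pomc* within groups, out of 12767 others, were *Pcbp1*, an RNA-binding protein (r = 0.876), *Ergic3* of the early secretory pathway (0.840), *Keap1*, which targets the transcription factor NRF2 for degradation (0.823), *Hnrnpab*, another RNA-binding protein (0.821), and *Sst*, the somatostatin precursor (0.820). Genes with the lowest r were *Nrd1*, a metalloprotease (−0.841), *Reps2*, involved in endocytosis (−0.838), and *Zfp715*, a zinc finger gene (−0.819). None of these 8 genes was called for current diet, and the largest change among them was −0.10, in *Sst* (edgeR adjusted p = 0.900). For *Cartpt* the closest genes were *Ecel1*, a neuronal endopeptidase (r = 0.882), *Gpx3*, a secreted glutathione peroxidase (0.842), *Cited1*, a transcriptional co-regulator (0.834), *Serpina3n*, a secreted protease inhibitor (0.821), and the ribosomal protein gene *Rpl6* (0.807). *Serpina3n* alone among them was also called for current diet, with a log2 fold change of 0.50 (standard error 0.0982, edgeR adjusted p = 0.0572). The lowest r with *Cartpt* were those of *Nsf*, a membrane fusion ATPase (−0.846), *Ica1l* (−0.780) and *Lypd1* (−0.772). These correlations are over 21 libraries of nearly equal depth, each from a separate pool, and are a description with no test. An r of at least 0.6 was found for 353 genes with *Pomc* and 123 with *Cartpt*. Seen from *Cartpt*, *Pomc* ranked 568 of 12767, and seen from *Pomc*, *Cartpt* ranked 1241.

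The tissue label was compared with marker genes. All 10 arcuate genes were tested, and *Agrp* and *Npy* were present in every library, with at least 426 and 1390 reads. *Agrp* fell by 0.93 and *Npy* by 1.10 on the log2 scale with current HFD (edgeR adjusted p = 7.77e-04 and 1.03e-06), so these 2 moved opposite to *Cartpt*, and *Isl1* was lower in HFD → RC than in RC NoDS (−0.55, edgeR adjusted p = 0.145). The median log2 fold change of the arcuate list for current diet was −0.08, against 0.00 over all genes tested. In HFD NoDS, 2 of 10 arcuate genes were above 0 relative to RC NoDS (median −0.12) and 6 of 10 relative to HFD → RC (median 0.06). In HFD → RC relative to RC NoDS, 0 of 10 were above 0 (median −0.26). The summed reads of the list averaged 11573 ± 1300 in RC NoDS, 7039 ± 1005 in RC → HFD, 9090 ± 2190 in HFD → RC and 8028 ± 1056 in HFD NoDS. *Npy* was its most abundant gene, with means of 4822, 1907, 3669 and 1987 reads in the same order of groups. The sums thus hold the diet response of *Npy* and are not a measure of arcuate tissue alone. Apart from *Npy* and *Agrp*, no gene of the list ranked the groups as the sums did. In that order of groups *Tbx3* averaged 1306, 990, 986 and 1249 reads, and *Slc6a3* 305, 285, 283 and 262. Of the 5 ventromedial, 5 tanycyte and ependymal and 5 neuronal genes tested, none was called in any of 10 comparisons, with medians for current diet of 0.05, 0.03 and 0.02 by edgeR. At an unadjusted p under 0.05 for current diet, 0, 0 and 1 of them passed, and 666 of all 12768 genes did. In HFD NoDS relative to HFD → RC, where *Cartpt* was called, 0 of 5 ventromedial genes were above 0 (median −0.24), against 3 of 5 tanycyte and ependymal genes (median 0.0049) and 1 of 5 neuronal genes (median −0.05). In HFD NoDS relative to RC NoDS, where *Cartpt* was called too, 4 of 5 ventromedial genes were above 0 (median 0.17), as were 4 of 5 tanycyte and ependymal genes (median 0.06) and 3 of 5 neuronal genes (median 0.06). Between HFD NoDS and HFD → RC the tanycyte gene *Col23a1* differed by 0.45 on the log2 scale (edgeR adjusted p = 0.519). The part of these cells in the *Cartpt* difference was not tested. Over all genes tested, 0.431% were called in at least 1 of these comparisons. Of the paraventricular list, 4 of 6 genes were tested and 1, *Trh*, was called (0.82 for current HFD, edgeR adjusted p = 4.44e-04; median 0.14), while *Crh* was at 0 in 7 of 21 libraries.

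Of 6 lateral hypothalamic genes, 5 were tested and 1 was called, *Hcrt*, in HFD NoDS relative to RC NoDS (2.71, edgeR adjusted p = 0.0513), where 0.0783% of all genes were called. For current diet, 2 of 5 were at an unadjusted p under 0.05, against 666 of all 12768 genes. They were *Hcrt*, with a log2 fold change of 1.14 (edgeR adjusted p = 0.745), and *Pmch*. For earlier diet the *Hcrt* log2 fold change was 1.57 (edgeR adjusted p = 0.178). The list summed to 3161, 4083, 3385, 2464 and 2453 reads in RC NoDS and to 2958, 4975, 3937, 2753 and 4061 in HFD NoDS. In HFD → RC it summed to 4110, 3167, 4310, 3727 and 3147 reads, and in RC → HFD it ran from 3443 to 4831 with a median of 4032.5. *Nptx2* was its most abundant gene, at a mean of 1852 reads, and no gene of the list was at 0 in any library. *Cartpt* is expressed in lateral hypothalamic neurons too, and *Hcrt* and *Cartpt* were both highest in HFD NoDS. The other tested genes of the list were not. By mean reads, *Nptx2* and *Nts* were lowest in HFD NoDS, *Pmch* was highest in RC → HFD and *Mchr1* in HFD → RC. With the *Hcrt* level as a covariate, *Cartpt* rose with current HFD by 0.65 (edgeR adjusted p = 8.59e-04), and without HFD NoDS replicates 20 and 21, the 2 libraries highest in *Hcrt*, by 0.61 (edgeR adjusted p = 0.0050). Without these 2 libraries *Cartpt* was no longer called in HFD NoDS relative to HFD → RC (0.79, edgeR adjusted p = 0.163). The part of lateral hypothalamic tissue in the *Cartpt* counts was not tested.

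Pituitary genes were examined because *Pomc* is abundant there. Of 11 listed genes 10 had a row, 6 were tested and none was called in any of 10 comparisons, and their median log2 fold change for current diet was 0.29 by edgeR. At an unadjusted p under 0.05 were 2 of 6, against 666 of all 12768 genes, and they differed in sign, with log2 fold changes of 0.31 for *Crhr1* and −3.95 for *Gh*. The list summed to 600, 1044, 531, 1058 and 1268 reads in RC NoDS and to 498, 892, 813, 1432 and 1313 in HFD NoDS. It summed to 3185, 523, 321, 418 and 608 reads in HFD → RC, and ran from 420 to 2222 with a median of 753 in RC → HFD. *Crhr1*, which the brain expresses as well, was the most abundant, with a mean of 314 reads. The pituitary transcription factor *Pax7* was at 0 in 20 of 21 libraries, *Ghrhr* was at 0 in 16, and the growth hormone gene *Gh* had at most 4 reads in 17. *Prl* was at 0 in 11 libraries, *Fshb* in 5, and *Cga* and *Tshb* in 1 each. Other genes of the list had reads in every library. Among these, the transcription factor *Tbx19* had 25 to 134 reads (mean 81.7) and *Lhb* had 20 to 221 (mean 79.3). The most *Gh*, 2003 reads, was in HFD → RC replicate 13, where *Pomc* had 5417 reads, one of the lowest counts. RC → HFD replicate 12 had 480 *Gh* reads and 9929 of *Pomc*. RC NoDS replicate 6, with 184 *Gh* reads, and RC → HFD replicate 10, with 37, had the most *Pomc* of their groups, 9562 and 11263 reads. The most *Prl*, 841 reads, was in RC → HFD replicate 12, and HFD → RC replicate 13 had 258. RC NoDS replicate 2, with 154 *Prl* reads, had the fewest *Pomc* reads of all libraries, 5012. In RC → HFD replicate 9 there were 65 *Prl* reads and 8586 of *Pomc*. Over 10 reads of *Gh* or the prolactin gene *Prl* were found in 6 libraries, none of them from HFD NoDS, so leaving them out is unbalanced between groups. They were RC NoDS replicates 2 and 6, RC → HFD replicates 9, 10 and 12, and HFD → RC replicate 13. Without them, which leaves 15 libraries and was chosen after the data were seen, *Cartpt* had a log2 fold change of 0.54 with current HFD and was no longer called (edgeR adjusted p = 0.222), and *Pomc* had one of 0.32 (edgeR adjusted p = 0.998). Over 15 alternatives the adjusted p of *Cartpt* ran from 1.32e-04 by DESeq2 to this value, and the lowest by edgeR was 2.70e-04, with *Pmch* as covariate. The part of pituitary RNA in the *Pomc* counts was not tested.

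Libraries also differed in how many of the 3116 genes averaging 5 to 50 reads had no read at all. RC NoDS had a mean share of 3.22% ± 2.42 (SD, n = 5), the lowest, as for *Cartpt*. The share averaged 11.9% ± 8.82 in the 6 RC → HFD libraries, 16.5% ± 10.3 in the 5 of HFD → RC and 16.3% ± 9.93 in the 5 of HFD NoDS. Within groups its r was 0.194 with *Pomc* (permutation p = 0.444) and 0.275 with *Cartpt* (permutation p = 0.255). With the share as a covariate, *Cartpt* rose with current HFD by 0.55 (edgeR adjusted p = 0.00424).

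Of 44 genes of the melanocortin pathway, 42 had a row, 36 were tested and 4 were called in at least 1 of 10 comparisons, against 55 of all 12768 genes tested. For current diet 1 rose and 1 fell, and the median log2 fold change was −0.01, with 17 of 36 above 0. Among transcription factors, *Stat3*, which carries the leptin signal, had the most reads (mean 3237) and rose in HFD NoDS relative to RC NoDS, by 0.37 (standard error 0.0734, edgeR adjusted p = 0.0454). It was also higher in HFD NoDS than in HFD → RC (0.37, edgeR adjusted p = 0.0896), the same 2 pairs of groups as *Cartpt*. Of the receptors upstream of *Pomc* neurons, the cannabinoid receptor *Cnr1* had the most reads (mean 1741), and of the inhibitors of leptin signalling the phosphatase *Ptpn1* (mean 977), and neither was called. The processing genes *Pcsk1n* (mean 30099), which encodes an inhibitor of prohormone convertase, and *Cpe* (mean 26606), a carboxypeptidase, were not called in any comparison. Nor was either prohormone convertase, *Pcsk1* (mean 1249) or *Pcsk2* (mean 4506).

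On the receptor side, *Mc3r* averaged 434 reads and *Mc4r* 81.4, *Mc5r* was at 0 in 10 of 21 libraries and *Mc1r* in 20 of 21. *Sdc3*, a syndecan (mean 8961), led the accessory genes, and *Ntrk2*, the BDNF receptor (mean 23723), the downstream genes. The melanocortin receptor antagonist *Agrp* fell with current HFD, as above. *Trh*, a target of melanocortin neurons in the paraventricular nucleus, rose with both current HFD (0.82) and earlier HFD (0.97, edgeR adjusted p = 2.62e-05). The counts of this list are given as a description.

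The promoters of *Pomc* and *Cartpt* are shown as the 250 bases before the RefSeq transcription start in build GRCm38.p6. The *Pomc* stretch lies at chr12:3954695-3954944 on the plus strand, has a GC content of 60.0% and holds TATAAA once, 25 bases before the start (capitals). The *Cartpt* stretch, at chr13:99900684-99900933 on the minus strand, has a GC content of 66.8% and holds the cyclic AMP response element TGACGTCA once, 112 bases before the start (capitals).
Pomc: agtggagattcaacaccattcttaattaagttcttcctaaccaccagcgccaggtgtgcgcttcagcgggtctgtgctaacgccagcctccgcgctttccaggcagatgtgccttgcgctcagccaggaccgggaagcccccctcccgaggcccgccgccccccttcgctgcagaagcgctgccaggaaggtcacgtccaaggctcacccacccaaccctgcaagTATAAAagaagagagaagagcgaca
Cartpt: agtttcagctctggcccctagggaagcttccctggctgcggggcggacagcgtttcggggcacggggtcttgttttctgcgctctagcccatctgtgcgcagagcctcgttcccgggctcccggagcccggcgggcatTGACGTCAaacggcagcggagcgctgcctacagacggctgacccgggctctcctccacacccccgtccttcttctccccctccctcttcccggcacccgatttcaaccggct

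Among 32851 promoters of the same length, searched on both strands, 12.4% held TATAAA and 1.55% held TGACGTCA, and the median GC content was 52.4%. Neither promoter held TTCNNNGAA, the core of sites that bind STAT factors, which 7.02% of promoters did. CANNTG, the E-box, was found 2 times in *Pomc* and once in *Cartpt*, and in 66.2% of all promoters. None of these motifs overlapped another in either stretch. A match to these letters is a description of the sequence, and binding was not measured.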

How the data were processed

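The authors aligned reads of 100-base single-end, stranded polyA libraries to mm9 (Ensembl v67 genes) with STAR 2.5.1b, merged sequencing runs with Picard 2.7.1, set ribosomal RNA and mitochondrial reads aside and randomly re-sampled each library to a common depth, and deposited counts, whole reads for each gene, which were used unscaled in all 21 libraries. Genes averaging at least 50 reads (12768) entered 1 edgeR 4.0.16 fit (R 4.3.3, TMM factors, quasi-likelihood) with a mean per diet group. Calls used Benjamini-Hochberg adjusted p under 0.15 among these genes. The fit was also run on simulated data, with no outcome given here. Correlations used 100000 permutations within groups (Python 3.11.15, numpy 2.4.6, scipy 1.17.1), and plots matplotlib 3.10.9. Similar places in the genome were sought with BLAST 2.17.0.

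Alternatives used DESeq2 1.42.0, limma 3.58.1 (voom and trend), the Low Filter (at least 5 reads), no filter, other scalings, a robust dispersion, reads summed by symbol, *Hcrt*, *Pmch* and low-gene covariates, and each library left out in turn. Named genes were the 5 tested genes with the highest and the 3 with the lowest r to each of *Pomc* and *Cartpt*, called list genes, *Agrp*, *Npy*, *Hcrt* and *Pmch*, the most abundant gene and those at 0 of the pituitary and lateral hypothalamic lists, and the most abundant melanocortin genes by role; other genes named were chosen after their values were seen. The genes and lists (melanocortin, arcuate, lateral hypothalamus, paraventricular, ventromedial, pituitary, tanycyte and ependyma, neuron) were chosen with earlier results of these data known.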

Additional observations from a re-analysis of the deposited data

How the results depend on the processing

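Each limit here is over the alternatives run. *Cartpt* was called in HFD NoDS minus RC NoDS in all of 16 alternatives and 21 fits with 1 library left out (0.80 to 0.96 in the latter), and for current diet in all of those 21 (0.54 to 0.63). It lost the current-diet call without the libraries with *Gh* or *Prl* reads (0.54, edgeR adjusted p = 0.222). *Cartpt* in HFD NoDS minus HFD → RC lost its call with a robust dispersion (0.73, edgeR adjusted p = 0.162), without the 2 libraries highest in *Hcrt* (0.79, edgeR adjusted p = 0.163) and without those with *Gh* or *Prl* reads (0.68, edgeR adjusted p = 0.346), and ran from 0.64 to 0.84 with 1 library left out. With *Pmch* as covariate *Pomc* was called for current diet (0.60), HFD NoDS minus RC NoDS (0.61, edgeR adjusted p = 0.109) and RC → HFD minus RC NoDS (0.75), and so was *Cartpt* in the last (0.60), as by DESeq2 (0.43, DESeq2 adjusted p = 0.0748). The *Pomc* values near 0 changed sign. HFD → RC minus RC NoDS became −0.017 by limma-trend, −0.0059 by library size and −0.078 with the share of low genes at 0 (−0.13 to 0.14 with 1 library left out). HFD NoDS minus RC → HFD became 0.0093 with *Hcrt* as covariate and 0.054 without *Gh* or *Prl* libraries (−0.13 to 0.028). Earlier diet became 0.045 with *Hcrt* and 0.00826 with *Pmch* as covariate, 0.011 without the 2 libraries highest in low genes at 0 and 0.087 without *Gh* or *Prl* libraries (−0.079 to 0.058). The interaction became 0.0041 by limma-trend and 0.019 with low genes at 0 (−0.17 to 0.10), and was −0.30 with *Pmch* as covariate and −0.21 without the 2 libraries highest in low genes at 0. *Pomc* was not called in any alternative in 2 further pairs. It ran from 0.23 to 0.59 in RC → HFD minus HFD → RC (0.30 to 0.55 with 1 library left out). In HFD NoDS minus HFD → RC it ran from 0.21 to 0.45 (0.27 to 0.52). *Cartpt* in HFD → RC minus RC NoDS, not called in any alternative, ran from 0.047 with low genes at 0 to 0.30 with *Hcrt* as covariate, and from 0.052 to 0.24 with 1 library left out. The *Cartpt* interaction, not called in any alternative either, ran from 0.17 to 0.39, and from 0.22 to 0.41 with 1 library left out. The coupling was 0.774 without HFD → RC (permutation p = 0.00272), 0.645 without its replicate 15 (permutation p = 0.00911) and 0.539 without its replicate 17 (permutation p = 0.0370), all unadjusted, and 0.297 to 0.645 with 1 library left out. It was lower, at 0.196, with *Pmch* removed and at 0.265 with *Agrp* and *Npy* removed. Counts of genes called varied, over the alternatives from 4 to 265 for HFD NoDS minus RC NoDS, 0 to 44 for HFD NoDS minus HFD → RC, 2 to 96 for current diet, 2 to 35 for earlier diet, 0 to 191 for the interaction and 4 to 133 across all 4 groups. With 1 library left out they were 5 to 14, 1 to 13, 4 to 10, 2 to 70, 0 to 124 and 9 to 80, in the same order. For HFD → RC minus RC NoDS, RC → HFD minus HFD → RC, RC → HFD minus RC NoDS and HFD NoDS minus RC → HFD they were 1 to 151, 0 to 5, 2 to 146 and 0 to 32 over the alternatives, and 1 to 205, 1 to 41, 4 to 11 and 1 to 31 with 1 library left out.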
